A study of Mus musculus with 6 samples.

Results

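Collagens, the triple-helical proteins of the extracellular matrix, were followed in inguinal white fat, which lies under the skin, of mice on a high-fat diet (HFD). They were taken as every gene symbol made of Col, a type number, the letter a and a chain number, which gave 44 of the 24984 genes in the count files. The rule uses names alone and no measured value. Libraries came from 2 groups of 3, Mpst knockout on HFD (Mpst KO) and wild type on HFD (WT). Both groups received the diet, no group on another diet is analysed here, and the sources used here do not give the allele, strain, age or sex of the mice. Mpst encodes a sulfurtransferase that yields hydrogen sulfide. The series title relates its loss to mitochondrial protein import and obesity, and the comparison asks how the fat depot differs without the gene. The labels number the replicates without saying that they are separate animals, so p-values measure the spread between these libraries, which may be technical.

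Every collagen is a trimer of chains, each of which is the product of its own gene. Fibrillar collagens (types I, II, III, V, XI, XXIV and XXVII) assemble into the cross-banded fibrils that give tissue its tensile strength, and types I, III and V are the usual ones of fat. Type IV collagen forms the sheet-like network of basement membranes, which wrap each adipocyte and each capillary, while types XV and XVIII link that sheet to the matrix outside it. Type VI collagen forms beaded microfilaments around adipocytes, and the carboxyl end of its alpha 3 chain is released as endotrophin, a fragment known for its actions in obese fat. Adipose tissue that expands under a high-fat diet is known to lay down collagen, mostly from fibroblast-like progenitor cells. The files hold 11 fibrillar genes, 8 of basement membranes (6 of type IV and those of types XV and XVIII), 6 of type VI and 19 others.

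The sequences before the start sites are shown for 3 fibrillar genes, since Col3a1 alone among the collagens passed the test described below while Col5a1 and Col5a3, of the same class, did not. Each line gives the 250 bases before the start in RefSeq on GRCm38.p6, 5′ to 3′ on the strand of the gene, with matches on either strand to 3 motifs in capitals. The motifs were the TATA box, spelled TATAAA, the box named for its letters CCAAT, and the GC box of the Sp family, spelled GGGCGG.
Col3a1, chr1:45311288-45311537, plus strand: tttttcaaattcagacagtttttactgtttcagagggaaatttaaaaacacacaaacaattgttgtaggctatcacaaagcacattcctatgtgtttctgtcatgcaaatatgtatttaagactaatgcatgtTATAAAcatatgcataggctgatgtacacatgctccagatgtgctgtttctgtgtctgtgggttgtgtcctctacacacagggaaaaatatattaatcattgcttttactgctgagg
Col5a1, chr2:27886175-27886424, plus strand: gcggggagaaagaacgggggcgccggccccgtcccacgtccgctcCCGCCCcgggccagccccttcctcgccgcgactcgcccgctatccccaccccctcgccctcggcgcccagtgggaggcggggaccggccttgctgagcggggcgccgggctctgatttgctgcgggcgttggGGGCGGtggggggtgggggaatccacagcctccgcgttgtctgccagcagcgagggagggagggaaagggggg
Col5a3, chr9:20815068-20815317, minus strand: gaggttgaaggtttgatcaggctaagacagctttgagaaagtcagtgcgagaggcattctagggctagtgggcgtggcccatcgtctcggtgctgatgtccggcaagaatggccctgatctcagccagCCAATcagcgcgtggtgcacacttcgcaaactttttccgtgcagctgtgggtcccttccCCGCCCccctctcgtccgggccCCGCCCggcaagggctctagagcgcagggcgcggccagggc
The Col3a1 stretch held 1 match to TATAAA, at position −117 from the start site, and none to the other motifs. Col5a1 held 2 matches to GGGCGG, and Col5a3 held 2 to GGGCGG and 1 to CCAAT. RefSeq gave 38 such stretches for 35 of the 44 collagens. GGGCGG was in 22 of them (57.9%), against 32.7% of all 32851 stretches in the table. CCAAT was in 13 (34.2%), against 33.8%, and TATAAA in 5 (13.2%), against 12.4%. Besides Col3a1, TATAAA was in the stretches of Col10a1, Col11a2, Col13a1 and Col17a1, none of which was called in the main test. A match describes the letters only and is not evidence that a factor binds there.

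The check of the labels came out clear in each library. Mpst had 3, 10 and 9 reads in the KO libraries, against 1358, 1394 and 1624 reads in the WT libraries. Total counts in genes lay between 8054560 and 22458630 in the KO libraries and between 17394489 and 21576075 in the WT libraries. The adipocyte markers Adipoq, Plin1, Cidec, Fabp4, Lipe and Pparg were abundant in every library, with summed levels of 30620 to 38589 CPM in KO and 41194 to 50359 CPM in WT (CPM, the count relative to the normalised library size). The 6 epithelial markers summed to at most 1.32 CPM, and Krt14 had no count. The 9 skeletal muscle markers summed to 1766 CPM in KO replicate 3 and 759 CPM in WT replicate 2. The other libraries had 35.0 to 133.6 CPM, so calls and some fold changes are also given without that pair.

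Collagen reads made up a larger part of the KO libraries. They were 1.11%, 1.17% and 1.45% of all counts in genes in KO, against 0.952%, 0.810% and 0.777% in WT, and the groups did not overlap. After scaling by the trimmed mean of M-values (TMM), which used factors of 1.01 to 1.09 for KO and 0.925 to 0.999 for WT, the summed level was 11825 ± 1331 CPM in KO and 8898 ± 1189 CPM in WT (SD, n = 3 each). That is 1.33 times as much in KO, against 1.47 times for the unscaled shares. The sum rests on a few chains, and no test was made on it.

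**Figure D1:**
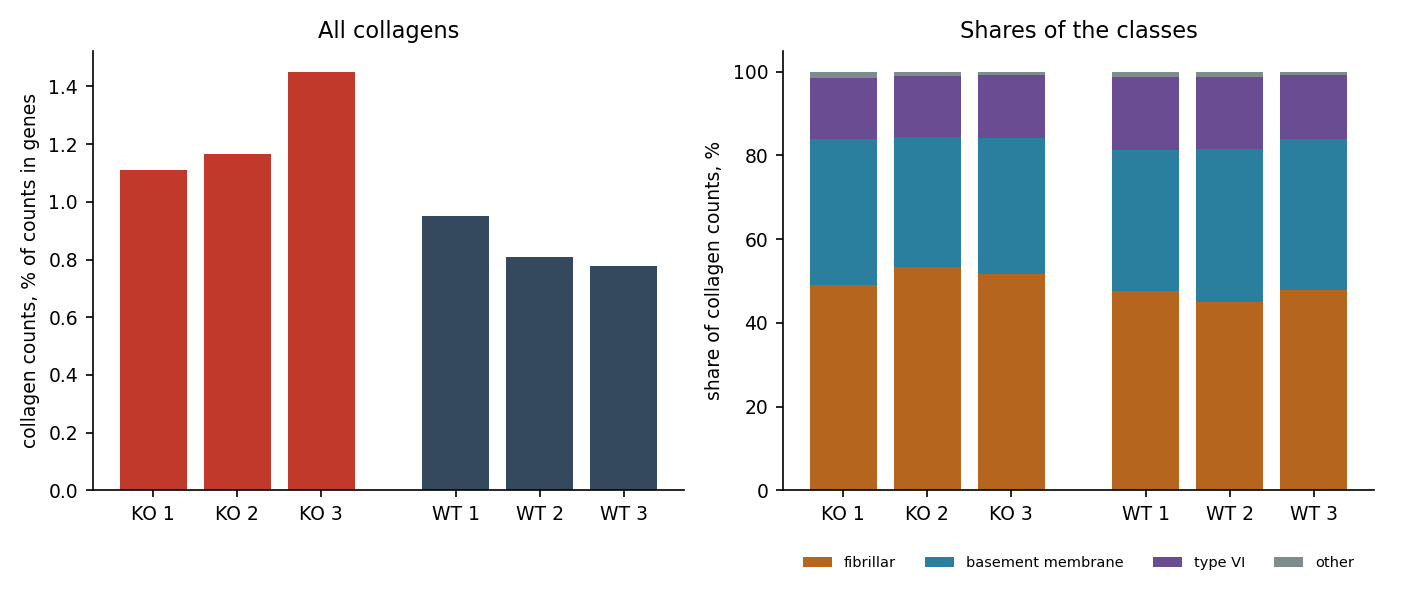
Left, counts of all 44 collagens as a percentage of the counts in genes, one bar per library; right, how those counts were divided among the 4 classes, in percent. The 3 KO bars stand at 1.11% to 1.45%, above the WT bars at 0.777% to 0.952%, and the fibrillar class holds 49.0% to 53.4% of collagen counts in KO and 45.1% to 47.8% in WT.

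The class make-up shifted by a few percentage points. Fibrillar genes held 51.4 ± 2.25% of collagen counts in KO and 46.9 ± 1.55% in WT (SD, n = 3 each). Basement membrane genes held 32.7 ± 2.02% in KO and 35.3 ± 1.53% in WT. Type VI genes held 14.7 ± 0.218% in KO and 16.7 ± 1.24% in WT. The fibrillar shares and the type VI shares did not overlap between the groups, while those of basement membrane genes did (30.9% to 34.9% in KO, 33.6% to 36.4% in WT). Col3a1 alone made up 22.6% to 25.9% of collagen counts in KO and 18.7% to 20.4% in WT (means 24.4% and 19.7%), so the fibrillar difference rests on this gene. The shares of a library add up to the whole, so a larger share of 1 class lowers the others. The summed level of type VI genes was not lower in KO, at 1743 ± 219 CPM against 1493 ± 292 CPM in WT. The shares describe the libraries and were not tested.

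Of the 44 collagens, 34 passed the filter on low counts and were tested with edgeR's quasi-likelihood test, with Benjamini-Hochberg adjustment of p across the 14065 genes tested. Col3a1 rose, 1 of 34 (2.94%), against 4.76% of all genes tested that were called higher at an adjusted p under 0.05. None fell, against 2.65% called lower. At an unadjusted p under 0.05, 7 were higher (20.6%, against 14.9% of all genes) and 1 was lower (2.94%, against 12.7%). All KO libraries lay above all WT libraries for 9 (26.5%, against 17.8%) and below them for 2 (5.88%, against 15.5%). The 9 include Col10a1 and Col11a1, which had at most 14 reads in a library and passed the filter only through their KO libraries. DESeq2 called 4 of 32 higher (12.5%, against 7.36%) and none lower (against 6.29%), namely Col3a1, Col4a1, Col4a5 and Col5a2. Limma-voom called Col3a1 alone (2.94%, against 4.98% higher), and none lower (against 2.66%). Each of these shares of called collagens rests on at most 4 genes. Its place above or below the background is therefore not read as a result about collagens. No collagen was called lower by any of the 3 tools.

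Fold changes leaned upward among the tested members. The log2 fold change, KO over WT, was above 0 for 24 and below 0 for 10, with a median of 0.25, against 0.01 over all genes tested. The medians were 0.42 for 9 tested fibrillar genes, 0.24 for 7 of basement membranes, 0.21 for 5 of type VI and 0.18 for 13 others. Members with few reads passed the filter only where enough libraries had counts, so these medians describe the members that passed and are not evidence about the other 10. Col10a1 and Col11a1 passed through their KO libraries, so their fold changes above 0 are no evidence of a rise.

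**Figure D2:**
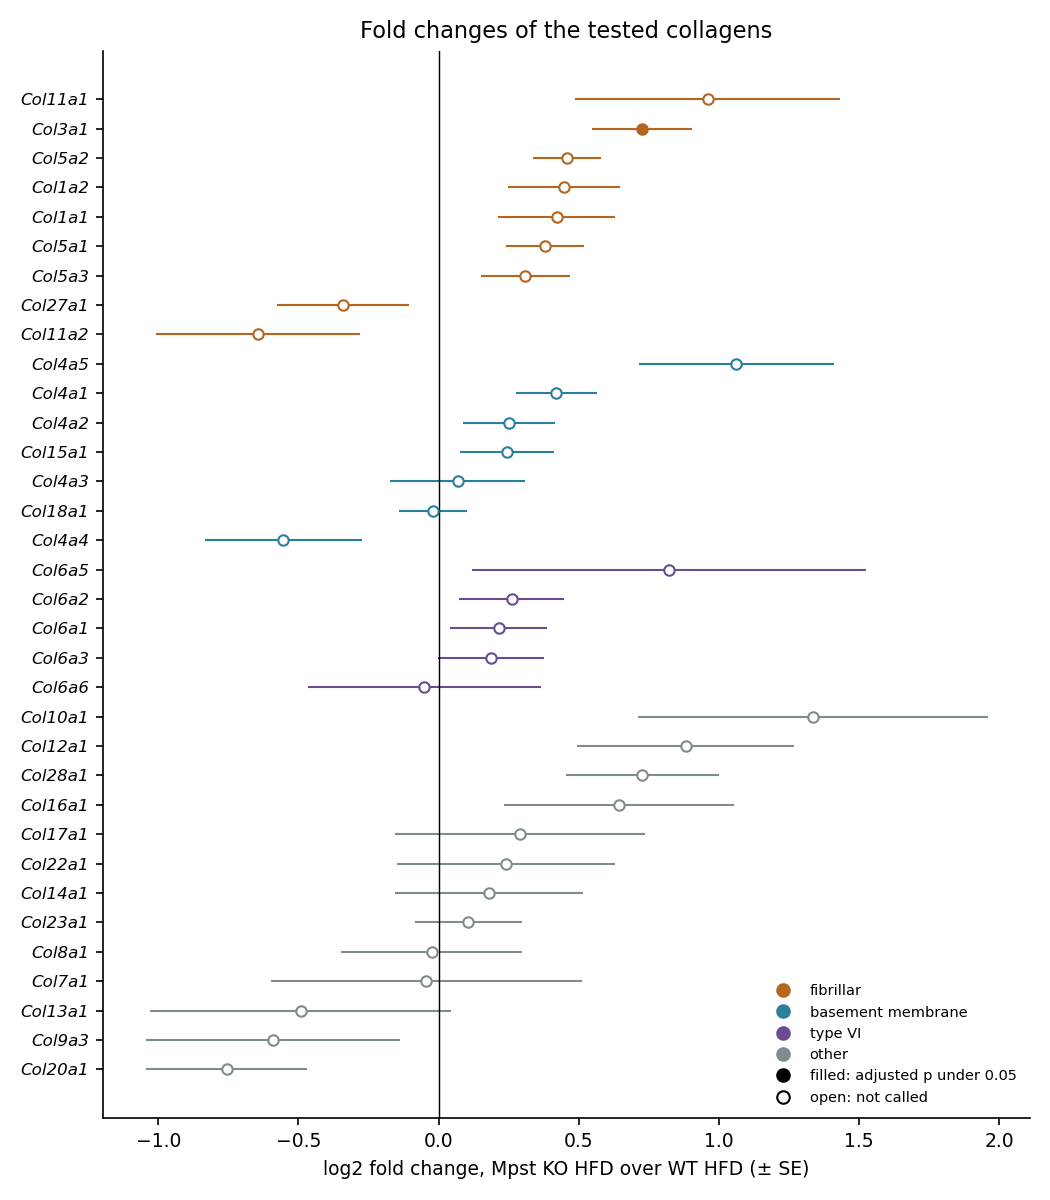
Log2 fold change of each tested collagen, KO over WT (points), with its standard error (bars), in the colour of its class; filled points passed the adjusted p. Col3a1 at 0.73 is the single filled point, the abundant fibrillar chains sit between 0.31 and 0.73, and the bars widen for chains with few reads such as Col10a1 and Col6a5.

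Among fibrillar collagens, Col3a1 encodes the only chain of type III, a homotrimer that forms thin, pliable fibrils together with type I. Its level was 2412, 2989 and 3267 CPM in KO replicates 1, 2 and 3, against 2012, 1641 and 1591 CPM in WT replicates 1, 2 and 3. Each KO library exceeded each WT library, the nearest being KO replicate 1 and WT replicate 1. It rose 1.65-fold (log2 fold change 0.73, SE 0.18, edgeR adjusted p = 0.0451). Of 16 other settings, 10 kept the call, and the log2 fold change ranged from 0.58 to 0.85. The call was lost with size factors by relative log expression (adjusted p = 0.0508), without WT replicate 2 (0.179), without KO replicate 1 (0.0938), replicate 2 (0.133) or replicate 3 (0.145), and without the 2 libraries rich in muscle transcripts (0.375). It was kept without WT replicate 1 or WT replicate 3. The whole table then had 538 calls higher and 263 lower without WT replicate 1, and 1434 and 1167 without WT replicate 3. In the fits with fewer libraries that lost the Col3a1 call, most calls of the whole table were lost too. They numbered 0 higher and 1 lower without WT replicate 2, 41 and 5 without KO replicate 1, 1 and 1 without KO replicate 2, 1 and 2 without KO replicate 3, and 0 and 1 without the 2 libraries highest in muscle transcripts, against 669 and 373 with all libraries. By length, it stood first of the 44 at 294 ± 44.5 CPM per kilobase of exon in KO and 178 ± 23.4 in WT (SD, n = 3 each).

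**Figure D3:**
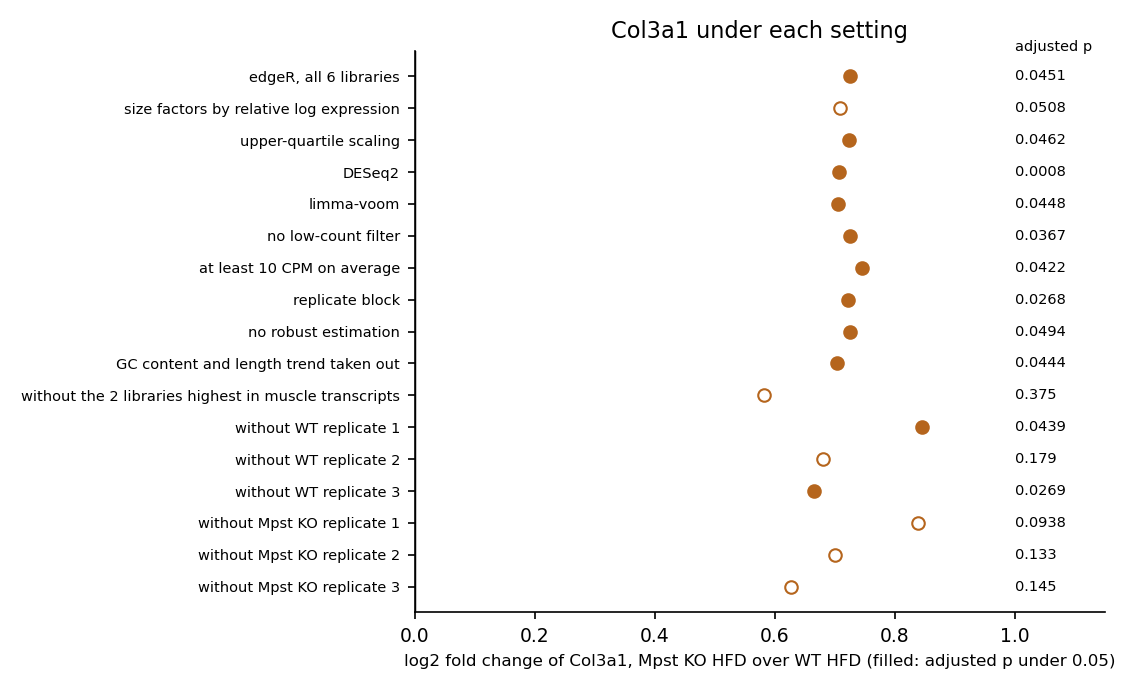
Log2 fold change of Col3a1, KO over WT, under the main test and 16 other settings, with the adjusted p of each at the right; filled points are under 0.05. All points lie between 0.58 and 0.85, while the adjusted p runs from 0.0008 with DESeq2 to 0.375 without the 2 libraries highest in muscle transcripts.

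Type I collagen, the most common fibril former of the body, joins 2 chains from Col1a1 with 1 from Col1a2. Col1a1 had 631, 760 and 917 CPM in KO and 719, 558 and 447 CPM in WT. Col1a2 had 911, 1100.1 and 1139.9 CPM in KO and 985, 722 and 602 CPM in WT. For both, WT replicate 1 lay above KO replicate 1, so the groups overlapped. Neither passed the test, at log2 fold changes of 0.42 (SE 0.21, edgeR adjusted p = 0.224) and 0.45 (SE 0.20, edgeR adjusted p = 0.184).

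Type V collagen starts type I fibrils and limits their width. Col5a2 had 304, 301 and 314 CPM in KO and 243, 223 and 203 CPM in WT. The KO values lay close together and all above the WT values, and the fold was 1.38 (log2 fold change 0.46, SE 0.12). Its edgeR adjusted p was 0.0546, so the gene was not called, while 5 of the 16 other settings called it, among them DESeq2 (0.0102) and the fit without WT replicate 3 (0.0447). Col5a1 had 289, 305 and 333 CPM in KO and 271, 236 and 206 CPM in WT (log2 fold change 0.38, SE 0.14, edgeR adjusted p = 0.122). Col5a3, a chain that is minor in most tissues, had 669, 685 and 893 CPM in KO and 596, 559 and 659 CPM in WT (0.31, SE 0.16, edgeR adjusted p = 0.239). No WT library reached the lowest KO library for any of these type V chains, a pattern seen in 17.8% of all genes tested. By length Col5a3 stood highest of the type V chains, at 110.0 ± 18.4 CPM per kilobase in KO and 88.8 ± 7.42 in WT.

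The remaining fibrillar genes had few reads. Col27a1 and Col11a2 had log2 fold changes of −0.34 and −0.64, and Col11a1 of 0.96 at 4 to 14 reads per library, with edgeR adjusted p of 0.222 to 0.381. Col2a1, the main collagen of cartilage, had 4 reads in all, and Col24a1 had 37, of which 22 came from KO replicate 3. Those last 2 genes did not pass the filter.

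Among basement membrane genes, Col4a1 and Col4a2 encode the chains of the common type IV trimer. They lie head to head on chromosome 8, and their annotated exons overlap by 22 bases at the start of both genes, at chr8:11312805-11312826. The shared bases are shown because reads within them cannot be assigned to either gene without strand. They read as follows on the plus strand of GRCm38.p6 in RefSeq.
Col4a2 and Col4a1: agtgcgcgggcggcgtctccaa
Col4a1 had 1694, 1599 and 1930.3 CPM in KO and 1332, 1330.2 and 1244 CPM in WT, with no overlap between the groups. Col4a2 had 1199, 1128 and 1379.8 CPM in KO and 1166, 1085 and 864 CPM in WT, and here WT replicate 1 exceeded KO replicate 2. Neither was called, at log2 fold changes of 0.42 (SE 0.14, edgeR adjusted p = 0.104) and 0.25 (SE 0.16, edgeR adjusted p = 0.357), though DESeq2 called Col4a1 (adjusted p = 0.0185). The ratio of Col4a1 to Col4a2, each per kilobase, was 1.25 ± 0.0085 in KO and 1.13 ± 0.136 in WT (SD, n = 3 each), and WT replicate 3 at 1.28 lay above all KO libraries.

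The other type IV chains make the trimers of kidney and other specialised basement membranes and had at most 115 reads in a library. Col4a5, on the X chromosome, had 2.98, 5.06 and 4.84 CPM in KO and 2.27, 1.22 and 2.74 CPM in WT. All KO values were above the WT values (log2 fold change 1.06, SE 0.35, edgeR adjusted p = 0.0913). It was called by DESeq2 (adjusted p = 0.0482) and without WT replicate 3 (0.0291). Col4a4 had lower values in every KO library (1.23 to 1.67 CPM, against 1.96 to 2.32 CPM in WT) and was not called (−0.55, edgeR adjusted p = 0.233). Its head-to-head neighbour Col4a3 had a log2 fold change of 0.07 (−0.009 without KO replicate 3), and Col4a6 did not pass the filter with 19 reads.

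Types XV and XVIII, whose carboxyl ends can be released as restin and endostatin, were plentiful. Col15a1 had 568, 583 and 693 CPM in KO and 622, 501 and 435 CPM in WT, so the groups overlapped (log2 fold change 0.24, SE 0.17, edgeR adjusted p = 0.380). Col18a1 had 257, 245 and 283 CPM in KO and 279.9, 262 and 254 CPM in WT (−0.02, SE 0.12, edgeR adjusted p = 0.931). Its sign changed in 3 of the 16 other settings, where it reached 0.11. Of the 13 collagens at a mean of 50 CPM or more, Col18a1 was the only one with a fold change below 0 in the main test.

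**Figure D4:**
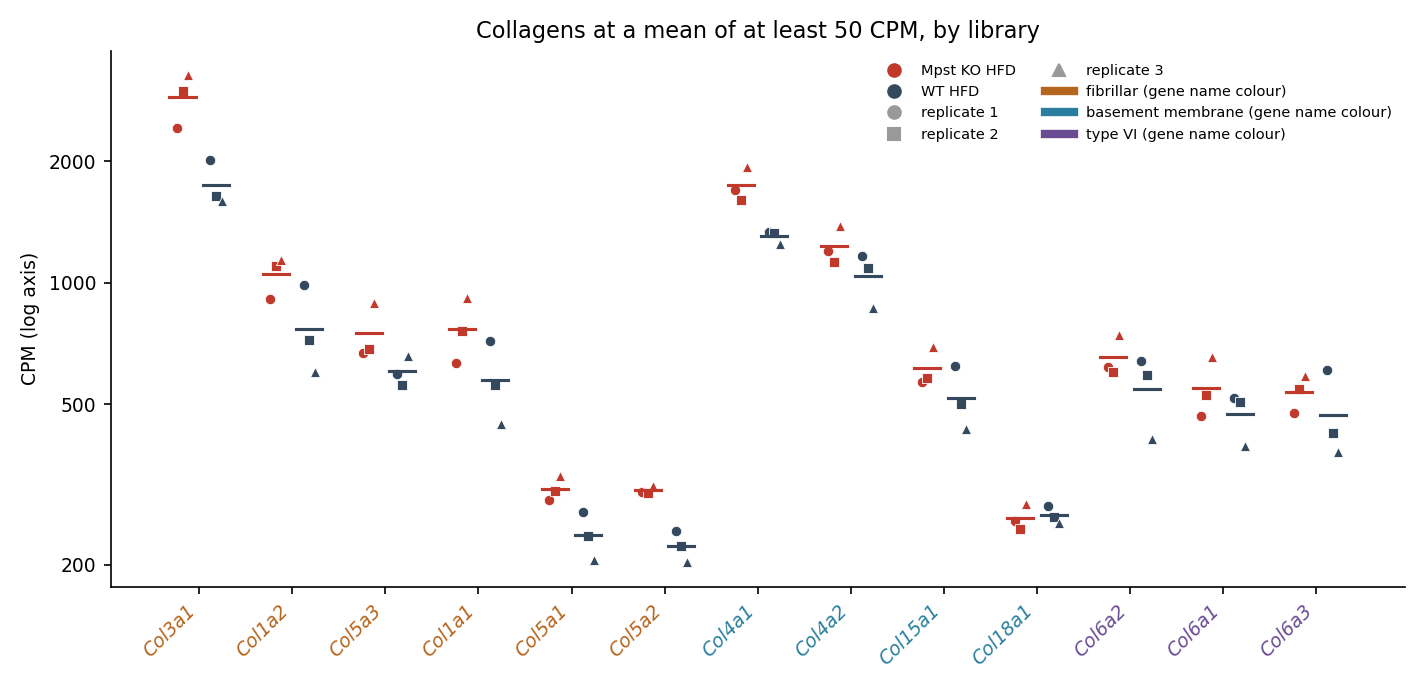
Level of each collagen with a mean of at least 50 CPM, on a log axis; points are libraries, marked by replicate number, lines are group means, and gene names carry the colour of the class. KO points lie above all WT points for Col3a1, Col5a1, Col5a2, Col5a3 and Col4a1 and are mixed with them for the other 8 genes. Over all genes tested, 17.8% had each KO library above each WT library.

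Type VI collagen takes 1 chain each from Col6a1, Col6a2 and another gene, mostly Col6a3. Col6a1 had 467, 526 and 653 CPM in KO and 519, 506 and 395 CPM in WT. Col6a2 had 619, 603 and 744 CPM in KO and 642, 589.6 and 410.0 CPM in WT. Col6a3 had 476, 545 and 588 CPM in KO and 607, 425 and 382 CPM in WT. In all 3 the groups overlapped, and WT replicate 3 was the lowest of the libraries. Log2 fold changes were 0.21 (SE 0.17), 0.26 (SE 0.19) and 0.19 (SE 0.19), with edgeR adjusted p of 0.458, 0.403 and 0.564. Counts per gene cannot separate the stretch of Col6a3 that gives endotrophin from the rest of the chain. By length Col6a3 stood lowest of these chains, at 44.8 ± 4.74 CPM per kilobase in KO and 39.4 ± 9.999 in WT, against 125.3 ± 21.7 in KO and 108.1 ± 15.5 in WT for Col6a1. The genes for the chains that can replace the Col6a3 product were scarce. Col6a5 and Col6a6 had 5 to 25 reads per library and log2 fold changes of 0.82 (SE 0.70) and −0.05 (SE 0.42), and Col6a4 did not pass the filter. The value of Col6a5 rests on KO replicate 1, with 18 reads, and was −0.055 without it. That of Col6a6 was 0.27 without WT replicate 2 and 0.23 without KO replicate 2.

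Ratios between chains within a library, each chain per kilobase, were chosen after the values were seen and carry no test. Col3a1 relative to Col1a1 was 2.56, 2.63 and 2.38 in KO and 1.87, 1.97 and 2.38 in WT, so KO replicate 3 and WT replicate 3 stood almost level. Col3a1 relative to Col6a1 was 2.30, 2.54 and 2.23 in KO and 1.73, 1.45 and 1.796 in WT, with no overlap. Relative to Col4a1, Col3a1 stood at 1.082, 1.422 and 1.287 in KO and 1.148, 0.9379 and 0.9723 in WT. For that ratio WT replicate 1 lay above KO replicate 1, so the groups overlapped. The ratio of Col1a1 to Col1a2 was 1.38 ± 0.124 in KO and 1.42 ± 0.042 in WT, that of Col5a2 to Col5a1 was 0.880 ± 0.047 in KO and 0.834 ± 0.041 in WT, and that of Col6a1 to Col6a2 was 1.59 ± 0.133 in KO and 1.67 ± 0.151 in WT (SD, n = 3 each). The groups overlapped for each of these pairs of chains of 1 trimer. Exon lengths are those of all annotated transcripts together, so the ratios serve to compare libraries rather than to count molecules.

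Of the 19 other collagens, 13 were tested and none was called. The most abundant were fibril-associated types, which sit on the surface of larger fibrils. Col16a1 had 70.8, 59.4 and 52.3 CPM in KO and 56.9, 44.3 and 15.6 CPM in WT (log2 fold change 0.64, SE 0.41, edgeR adjusted p = 0.350). Col12a1 had 18.8, 16.8 and 11.8 CPM in KO and 13.7, 8.02 and 3.99 CPM in WT (0.88, SE 0.39, edgeR adjusted p = 0.179). Both were lowest in WT replicate 3, as was Col14a1 (14.2 to 21.8 CPM in KO, 8.96 to 25.3 CPM in WT, log2 fold change 0.18). Without that library the log2 fold changes of Col16a1, Col12a1 and Col14a1 were 0.27, 0.53 and −0.12.

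Col28a1, a chain expressed in peripheral nerve, had the smallest p of the 13, with 8.47, 7.13 and 14.6 CPM in KO and 5.82, 6.26 and 6.27 CPM in WT. KO replicate 3 stood well above the other KO libraries, and the gene missed the threshold, at a log2 fold change of 0.73 (SE 0.27, edgeR adjusted p = 0.126). The 6 Schwann cell markers beside it summed to 233 to 298 CPM in KO and 180.1 to 320 CPM in WT. Col20a1 lay lower in every KO library (1.67 to 2.60 CPM, against 3.13 to 4.97 CPM in WT) and was not called (−0.76, SE 0.29, edgeR adjusted p = 0.131). Col8a1, of the hexagonal networks under endothelium, had 8.32 to 16.2 CPM in KO and 8.40 to 16.6 CPM in WT (−0.03), a sign that turned when WT replicate 1 (0.35), KO replicate 2 (0.08) or KO replicate 3 (0.16) was left out.

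Col10a1, the collagen of growth plate cartilage, had 6, 13 and 13 reads in KO and 2, 1 and 10 reads in WT (log2 fold change 1.33, SE 0.62, edgeR adjusted p = 0.201). Without WT replicate 3, which held most of the WT reads, the log2 fold change was 2.62 and the gene was called (edgeR adjusted p = 0.0256). Col10a1 passed the filter only through its KO libraries, so its higher level there is no evidence of a rise. The whole gene lies inside Nt5dc1 on the opposite strand. Nt5dc1 rose, with 14.5, 14.6 and 14.9 CPM in KO and 7.05, 6.87 and 9.70 CPM in WT (log2 fold change 0.90, edgeR adjusted p = 0.0286). The library kit does not mark strand, so reads of Nt5dc1 precursor RNA and of Col10a1 cannot be told apart. The remaining tested members, Col7a1, Col9a3, Col13a1, Col17a1, Col22a1 and Col23a1, had log2 fold changes from −0.59 to 0.29 and edgeR adjusted p from 0.433 to 0.968. Leaving out 1 library turned the sign for 4 of them. Col7a1 ran from −0.69 without KO replicate 3 to 0.60 without WT replicate 3, and was 0.22 without KO replicate 1 and 0.12 without KO replicate 2. Col13a1 was 0.02 without KO replicate 3, Col22a1 −0.02 without WT replicate 3 and Col23a1 −0.03 without WT replicate 1. The 6 that did not pass the filter, Col8a2, Col9a1, Col9a2, Col19a1, Col25a1 and Col26a1, had 3 to 51 reads over all 6 libraries.

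Several collagen genes lie side by side, and differences between neighbours were not tested. Col3a1 and Col5a2, the called gene and the one nearest to a call among the abundant chains, are neighbours on chromosome 1 with 24614 bases between their ends, on opposite strands, with log2 fold changes of 0.73 and 0.46. Col6a1 and Col6a2 on chromosome 10 are 85161 bases apart on the same strand, with log2 fold changes of 0.21 and 0.26. Col4a4 and Col4a3 start within 71 bases of each other on chromosome 1, with −0.55 and 0.07.

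Enzymes and partners that fold, cross-link, bind and remove collagen were read from 5 lists. Members that did not pass and are named were chosen after their values were seen, as were the less abundant collagens given by library above. New chains are hydroxylated and folded in the endoplasmic reticulum, and of 21 tested genes of this step 1 rose and none fell. For these counts and all that follow, the shares over all genes tested were 4.76% higher and 2.65% lower, and 1 of 21 is close to the first. Tmem38b, an ion channel of that compartment that is needed for collagen processing in bone, had 57.8, 46.2 and 37.9 CPM in KO and 29.2, 32.4 and 28.5 CPM in WT (log2 fold change 0.65, SE 0.16, edgeR adjusted p = 0.0465). The prolyl hydroxylase subunits and the chaperone differed little. P4ha1, P4ha2 and P4hb had log2 fold changes of 0.15, −0.11 and −0.01, and Serpinh1, the collagen chaperone HSP47, of 0.20 (edgeR adjusted p = 0.555). Plod2, which hydroxylates the lysines that later form cross-links, had 10.5, 13.3 and 11.9 CPM in KO and 6.37, 5.96 and 9.61 CPM in WT and was not called (0.70, edgeR adjusted p = 0.0836).

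Lysyl oxidases join collagen molecules by oxidising lysine side chains. Of 12 tested genes for processing and cross-linking, 2 rose and none fell (4.76% and 2.65% over all genes). Lox had 330.4, 309.5 and 263 CPM in KO and 192, 136 and 162 CPM in WT, a 1.84-fold rise (log2 fold change 0.88, SE 0.16, edgeR adjusted p = 0.0220). Loxl2 had 44.0, 51.8 and 57.9 CPM in KO and 32.6, 34.9 and 33.2 CPM in WT, a 1.53-fold rise (0.61, SE 0.13, edgeR adjusted p = 0.0311). For both, each KO library stood above each WT library. The sister gene Loxl1 stood lower in each KO library (115 to 137 CPM, against 142 to 154 CPM in WT) and was not called (−0.24, edgeR adjusted p = 0.214). Of the proteinases and enhancers that trim procollagen, Bmp1, Adamts2 and Pcolce had log2 fold changes of 0.17, 0.13 and −0.01. Pcolce2, Adamts14, Adamts3 and Tll1 had 0.30, 0.45, 0.86 and 0.88, and none was called. Tll1 was higher in each KO library, at 2.07 to 2.97 CPM in KO and 1.35 to 1.40 CPM in WT (edgeR adjusted p = 0.0851).

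Of 10 tested collagen receptors, 2 rose and none fell (4.76% and 2.65% over all genes). Lair1, an inhibitory receptor of leukocytes that binds collagen, had 9.78, 12.1 and 11.9 CPM in KO and 4.17, 3.22 and 3.48 CPM in WT (log2 fold change 1.64, SE 0.20, edgeR adjusted p = 0.0119). Antxr1, which binds type VI collagen and takes up anthrax toxin, had 27.5, 31.6 and 31.96 CPM in KO and 20.0, 21.9 and 14.9 CPM in WT (0.68, SE 0.16, edgeR adjusted p = 0.0419). The other 8 receptors did not pass and had log2 fold changes from −0.35 for Itga10 to 0.78 for Itga2, both integrin chains that bind collagen. Itga2 was higher in each KO library, at 0.98 to 1.496 CPM in KO and 0.55 to 0.84 CPM in WT (edgeR adjusted p = 0.194). The same held for 6 of the 10 receptors (17.8% over all genes), the uncalled Itgb1, Ddr2 and Antxr2 among them. Lair1 is a leukocyte gene, and in the same libraries 4 of the 6 macrophage markers rose and none fell (4.76% and 2.65% over all genes). Gpnmb, a glycoprotein of lipid-laden macrophages, had 176, 206 and 129.9 CPM in KO and 41.9, 29.5 and 20.01 CPM in WT (log2 fold change 2.48, SE 0.28, edgeR adjusted p = 0.0119). Itgam, an integrin chain of myeloid cells, had 23.4, 28.8 and 29.6 CPM in KO and 9.5, 10.8 and 7.80 CPM in WT (1.55, SE 0.17, edgeR adjusted p = 0.0119). The classical markers followed the same direction. Adgre1, a surface receptor of mature macrophages, had 76.5, 91.3 and 103.3 CPM in KO and 44.8, 28.3 and 19.6 CPM in WT (1.55, SE 0.27, edgeR adjusted p = 0.0191). Cd68 had 108.4, 122.4 and 112.7 CPM in KO and 66.99, 49.7 and 24.5 CPM in WT (1.29, SE 0.30, edgeR adjusted p = 0.0427). All 6 macrophage markers were higher in each KO library (17.8% over all genes), with summed levels of 553 to 637 CPM in KO and 170.1 to 312 CPM in WT. The 6 lymphocyte markers were scarce, with sums of 10.4, 12.8 and 24.5 CPM in KO and 7.54, 8.09 and 8.17 CPM in WT. None of them was called (smallest edgeR adjusted p = 0.126, Cd8a).

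Of 10 tested genes for breakdown and uptake, 2 rose and none fell (4.76% and 2.65% over all genes). Ctsk, the collagen-degrading protease cathepsin K, had 172, 186 and 143 CPM in KO and 110.3, 88.4 and 71.5 CPM in WT (log2 fold change 0.89, SE 0.18, edgeR adjusted p = 0.0274). Mrc1, a macrophage receptor that takes up collagen fragments, had 130.3, 151 and 134 CPM in KO and 98.0, 71.9 and 56.6 CPM in WT (0.88, SE 0.19, edgeR adjusted p = 0.0335). Of the matrix metalloproteinases in this list, none of those tested passed, and others of the family were not looked at here. The collagenase Mmp13 had 1.19, 1.94 and 2.38 CPM in KO and 0.67, 0.73 and 1.25 CPM in WT (1.07, SE 0.38, edgeR adjusted p = 0.113), and Mmp2, Mmp9 and Mmp14 had log2 fold changes of 0.24, −0.04 and 0.06.

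Type IV collagen works with laminins, nidogens and perlecan, and among 16 tested basement membrane partners none rose and 1 fell (4.76% and 2.65% over all genes). Lamb2, the laminin beta 2 chain, had 187, 177 and 195 CPM in KO and 254, 263 and 262 CPM in WT (log2 fold change −0.48, SE 0.11, edgeR adjusted p = 0.0399). Hspg2, which encodes perlecan, had 878, 1085 and 1010.4 CPM in KO and 1542, 1313 and 1090.5 CPM in WT, and Nid1, nidogen 1, had 607, 648 and 728 CPM in KO and 490.4, 491 and 565 CPM in WT. Neither passed (log2 fold changes −0.41 and 0.36, edgeR adjusted p = 0.164 and 0.133). Over these partners the log2 fold change had a median of −0.09, and over the tested basement membrane collagens one of 0.24.

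**Figure D5:**
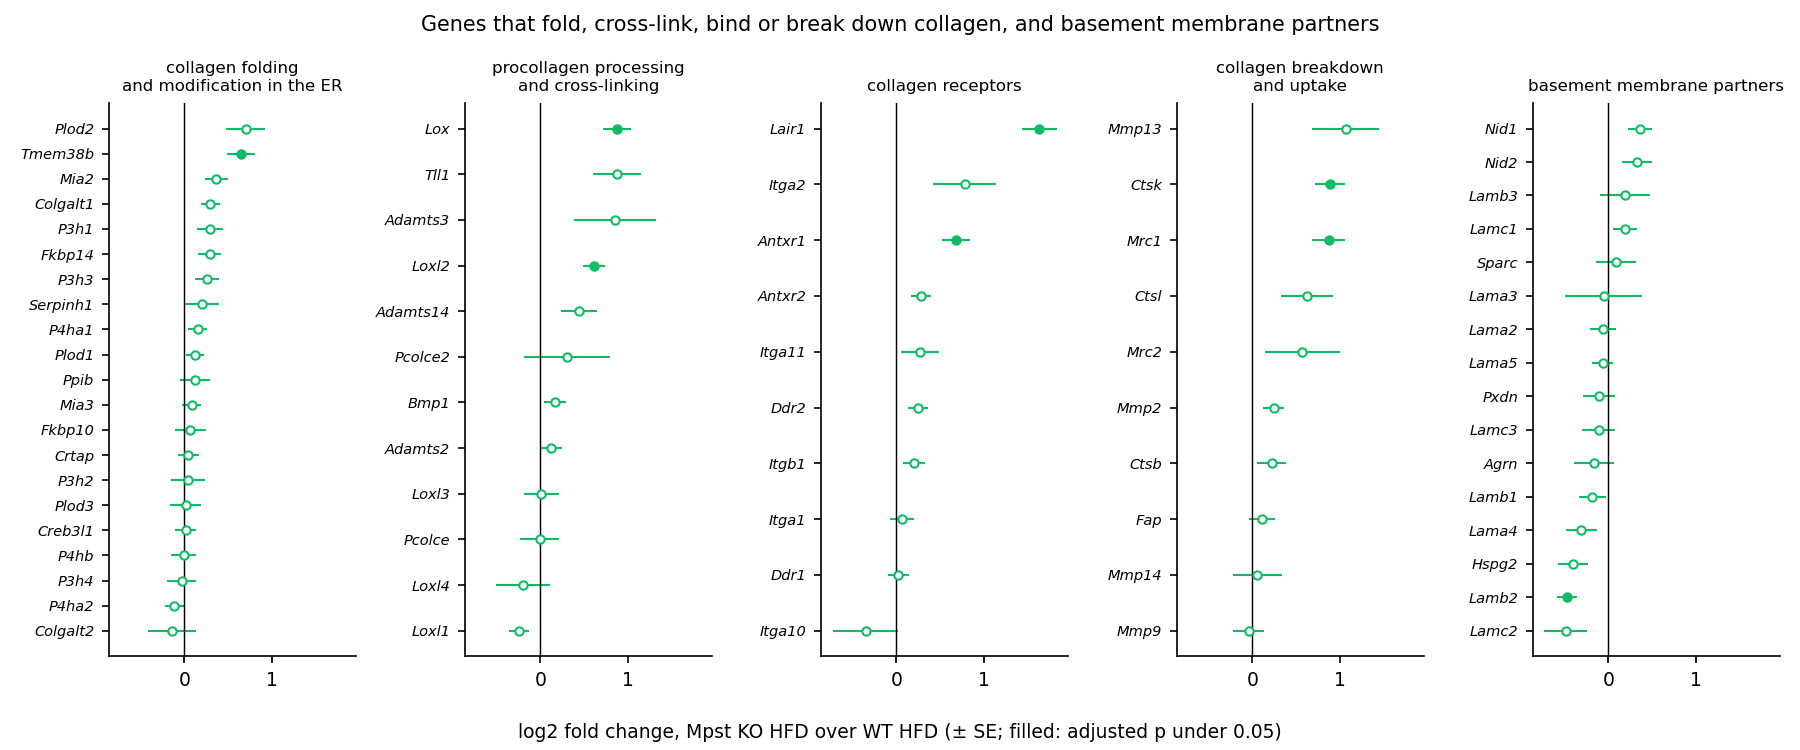
Log2 fold change (points) with standard error (bars), KO over WT, of the tested genes in the 5 lists; filled points have an adjusted p under 0.05. Lox, Loxl2, Lair1, Antxr1, Ctsk, Mrc1 and Tmem38b are filled to the right of 0 and Lamb2 is filled to the left.

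Each of these 8 called genes lost its call in at least 3 of the 6 fits that left out 1 library. Leaving out WT replicate 2, KO replicate 2 or KO replicate 3 ended all 8 calls, with adjusted p up to 0.153. Without KO replicate 1, Lair1 alone of the 8 was called. Without the 2 libraries highest in muscle transcripts none was. Without WT replicate 1, Lair1, Lox, Ctsk and Mrc1 were called, and without WT replicate 3 all 8 were. Their log2 fold changes kept their sign in each of these fits.

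Markers of the cells that make and surround collagen differed in direction, and their part in these results was not tested. In bulk tissue, more cells of a type and more RNA per cell cannot be told apart. Of 8 markers of fibroblasts and adipose progenitors, 2 rose and none fell (4.76% and 2.65% over all genes). Dcn, the small proteoglycan decorin that coats fibrils, had 939.8, 962 and 852 CPM in KO and 655, 481 and 493 CPM in WT (log2 fold change 0.76, SE 0.16, edgeR adjusted p = 0.0313). Lum, lumican, had 234, 318 and 251 CPM in KO and 153, 76.3 and 58.8 CPM in WT (1.48, SE 0.33, edgeR adjusted p = 0.0352). The 8 markers summed to 1663 to 1815 CPM in KO and 1052 to 1451 CPM in WT, with no overlap. That gap rests on Dcn and Lum, and the 6 that were not called differed in direction. Over the 8, the log2 fold change had a median of 0.085. Pdgfra, a receptor that marks adipose progenitors, was higher in each KO library (40.1 to 47.8 CPM in KO, 29.97 to 36.1 CPM in WT) and missed the threshold (0.46, SE 0.13, edgeR adjusted p = 0.0632). Dpp4 had a log2 fold change of −0.46, and Pdgfrb, Thy1 and Ly6a had −0.06 to 0.09. Pi16, a marker of early progenitors, had 31.7, 13.6 and 27.3 CPM in KO and 127, 152 and 28.6 CPM in WT (−2.10, edgeR adjusted p = 0.109). The 6 endothelial markers summed to 984 to 1177 CPM in KO and 852 to 909 CPM in WT, and none was called (smallest edgeR adjusted p = 0.0749, Cdh5). Of the 6 adipocyte markers none rose and 1 fell (4.76% and 2.65% over all genes), Lipe, hormone-sensitive lipase, with 1656, 1525 and 1370.3 CPM in KO and 2075, 2597 and 2708 CPM in WT (−0.70, SE 0.17, edgeR adjusted p = 0.0415). The 6 mural cell markers overlapped, with 1087 to 1283 CPM in KO and 1124 to 1300.1 CPM in WT. Calls among these markers also depended on single libraries. Dcn, Lum, Lipe, Adgre1 and Cd68 were called in 2 of the 6 fits that left out 1 library, those without WT replicate 1 or WT replicate 3, and Gpnmb and Itgam also without KO replicate 1. Lum was called in 8 of the 16 other settings. The log2 fold change of Dcn was 0.39 (adjusted p = 0.18) with the trend in GC content and length taken out.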

How the data were processed

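Single-end RNA-seq reads from inguinal fat of 3 Mpst KO and 3 WT libraries were prepared with a kit that does not mark strand, per the labels' protocols. The authors deposited whole-number read counts per gene for each library. HISAT2 2.1.0, HTSeq 0.13.5, DESeq2 1.26 and the build mm10 are named in the submitters' processing notes; the annotation and counter settings were not given in the sources used. Lines that name no gene were dropped from library sizes and tests; reads in no feature were 8.85% to 14.67% of uniquely mapped reads, and ambiguous ones 1.63% to 1.83%. Counts were filtered with filterByExpr, scaled by TMM and tested with edgeR 4.0.16 (robust quasi-likelihood, R 4.3.3), adjusting p over 14065 genes, called under 0.05. The script was tested on simulated data. Standard errors were obtained as fold change (log2) divided by the root of F. DESeq2 1.42.0, limma 3.58.1 and other settings were alternatives. Levels per kilobase used the exon union of GENCODE M21 on GRCm38. The biological coefficient of variation was 19.5%. Library size and these 3 libraries per group limit precision. The members and lists were chosen with earlier results of these data known. Values in each library are given for collagens that were called, at a mean of 50 CPM or more, or of smallest p in their class, and for called members of each list.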

Additional observations from a re-analysis of the deposited data

How the results depend on the processing

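All 16 alternatives kept 0 collagens called lower and Col3a1 above 0. The number called higher, 1 in the main test, was 0 with size factors by relative log expression, 4 with DESeq2, 2 at a mean of at least 10 CPM, 2 with no robust estimation, and 0 without the 2 libraries highest in muscle transcripts. Leaving out 1 library gave 0 to 4, with 4 without WT replicate 3, 1 without WT replicate 1, and 0 without WT replicate 2 or any 1 KO replicate. With the replicate number as a block 3 were called (Col3a1, Col5a2 and Col12a1); deviations of same-numbered libraries correlated at 0.171, −0.099 and 0.303, and not every library correlated best with its own number, so the numbers were not taken as pairs. The median log2 fold change of tested collagens ran from 0.161 to 0.398 when 1 library was left out, with 0.398 without WT replicate 1. The median of other collagens was 0.43 at a mean of at least 10 CPM. Only Col8a1, Col12a1, Col14a1 and Col16a1 of the 13 tested remained there, so the 2 medians cover different members. Col18a1 changed sign to 0.107 with the GC content and length trend taken out, and ran from −0.08 to 0.026 when 1 library was left out. The cause of these shifts was not tested. With 3 libraries a group and 1 KO library at less than the depth of the others, collagens with few reads had wide errors.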
